A study of Mus musculus with 30 samples.

Results

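Deletion of the CTCF-binding elements (CBEs) at the 3' end of the antibody heavy-chain locus Igh was examined in v-Abl pro-B cells treated with auxin and doxycycline, the treatment that removes WAPL through its degron. The comparison was made between the 3 libraries labelled 3CBEdel_DoxIAA_Abl and the 3 labelled WT_DoxIAA_Abl, which are 6 of the 30 libraries of the series and were chosen by their titles. Another 6 libraries, of the same cells without auxin and doxycycline, served as background. All 12 came from a C57BL/6 v-Abl-transformed pro-B line, an immortalised B-cell precursor, that is RAG1-/-, carries an Emu-Bcl2 transgene, a degron on WAPL and a single Igh allele, and was given RAG1/2 by retrovirus. The cells were arrested with 3 µM STI-571, an inhibitor of the v-Abl kinase, for 4 days. The treated cells had 150 µM IAA (auxin) and 2 µg/mL Dox (doxycycline) added for 3 of those days. By the labels, both groups carry every one of these alleles and agents, and 3CBEdel adds the deletion. The labels do not say how many clones carry the deletion or whether the 3 libraries of a group came from separate cultures, so p-values measure the spread between these libraries, which may be technical. WAPL protein and the deletion itself were not measured by these junctions.

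Heavy chains are assembled by the RAG recombinase, which cuts at recombination signal sequences (RSSs) beside V, D and JH segments and joins them in the order D to JH, then V to DJH. RAG bound at the JH end of the locus is thought to meet its targets as cohesin extrudes chromatin past it. CTCF bound at CBEs is an obstacle to that extrusion, and WAPL unloads cohesin from chromatin. The 3' CBEs lie at the downstream border of the locus, on the side of JH away from the D and V segments. In the assay (HTGTS-V(D)J-seq) genomic DNA is amplified outward from a primer at JH4, and each read gives the position to which JH4 was joined. A read that joins JH4 to a D comes from a DJH rearrangement, and one that reaches a V comes from a VDJH rearrangement. A junction was given to a segment when it lay in it or within 100 bp of it, which covered 131 V and 21 D segments of mm9, the mouse genome build of the files. A level is a number of junctions per 100000 junctions of the library.

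The results turn on the D segments at both ends of the D cluster and on where in the V region the joins lay. Below are the coding sequence and 3' RSS of Ighd4-1, the D nearest to JH, of Ighd2-3, a frequent D of the middle of the cluster, and of Ighd1-1, the farthest frequent D. All are on the minus strand of chromosome 12 in mm9 and are written 5′ to 3′, with the coding bases in capitals and the RSS in lower case.
Ighd4-1 (chr12:114668711-114668749): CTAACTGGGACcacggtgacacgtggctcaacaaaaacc
Ighd2-3 (chr12:114713583-114713627): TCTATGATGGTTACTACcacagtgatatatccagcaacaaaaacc
Ighd1-1 (chr12:114720353-114720403): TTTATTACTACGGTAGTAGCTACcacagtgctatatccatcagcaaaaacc
The partner of these RSSs is the RSS of JH4, shown with its nonamer and heptamer in capitals.
Ighj4 (chr12:114666779-114666817): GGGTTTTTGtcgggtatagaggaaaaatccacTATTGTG
Counted from the base next to the coding segment, the heptamer of Ighd4-1 differs from the consensus CACAGTG by A4G, and those of Ighd2-3 and Ighd1-1 have no difference.
For the V side, the RSSs of Ighv5-2, close to D, and of Ighv8-12, in the far part of the V region, are shown with heptamer and nonamer in capitals.
Ighv5-2 (chr12:114816676-114816714): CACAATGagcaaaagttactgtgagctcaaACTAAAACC
Ighv8-12 (chr12:116886117-116886155): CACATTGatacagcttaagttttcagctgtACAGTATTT
Their heptamers differ from the consensus by G5A and G5T.

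The treated libraries held 13180 to 22105 junctions in 3CBEdel and 21856 to 31275 in WT, with V plus D joins at 97.9% to 98.5% of each. Different read sequences, each counted once however often it occurred, numbered 61.7% to 66.8% of all reads in 5 of the 6 treated libraries and 81.8% in 3CBEdel replicate 3, the shallowest library. The read names showed 3 sequencing runs. WT replicate 1 was alone in run 1 and 3CBEdel replicate 3 alone in run 3 among treated libraries, and the other 4 shared run 2. Of the V-join read sequences, at most 1.63% of the smaller library's were found in another treated library as well.

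Completed V joins made up a smaller share of V plus D joins in treated cells without the 3' CBEs. The V share was 5.94%, 6.19% and 7.80% in 3CBEdel replicates 1 to 3 and 9.22%, 9.30% and 9.26% in WT. Every 3CBEdel library lay below every WT library, the WT libraries lay close together, and 3CBEdel replicate 3 was the highest of its group. The means were 6.64% ± 1.01 (SD, n = 3) and 9.26% ± 0.0385 (SD, n = 3), a ratio of 0.717. The difference of -2.62 percentage points had p = 0.1 in an exact two-sided permutation test, the smallest p that 3 against 3 libraries allow. It was -3.22 points in run 2, which holds both groups, and -3.20 points without 3CBEdel replicate 3. In the untreated cells the V share was 1.82% ± 0.120 (SD, n = 3) in 3CBEdel and 1.89% ± 0.158 (SD, n = 3) in WT. The genotype difference in treated cells exceeded that in untreated cells by -2.54 points, which did not pass an exact test with genotype permuted within treatment (p = 0.08). In points, only relabelings with the observed treated split or its mirror image can reach that value. This p therefore turned on the untreated libraries alone and cannot judge the size of the treated difference. On the log2 scale this difference of differences was -0.43 (exact p = 0.125). The V joins behind these shares numbered 1293, 1266 and 1012 in treated 3CBEdel and 1974, 2855 and 2632 in treated WT.

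**Figure D1:**
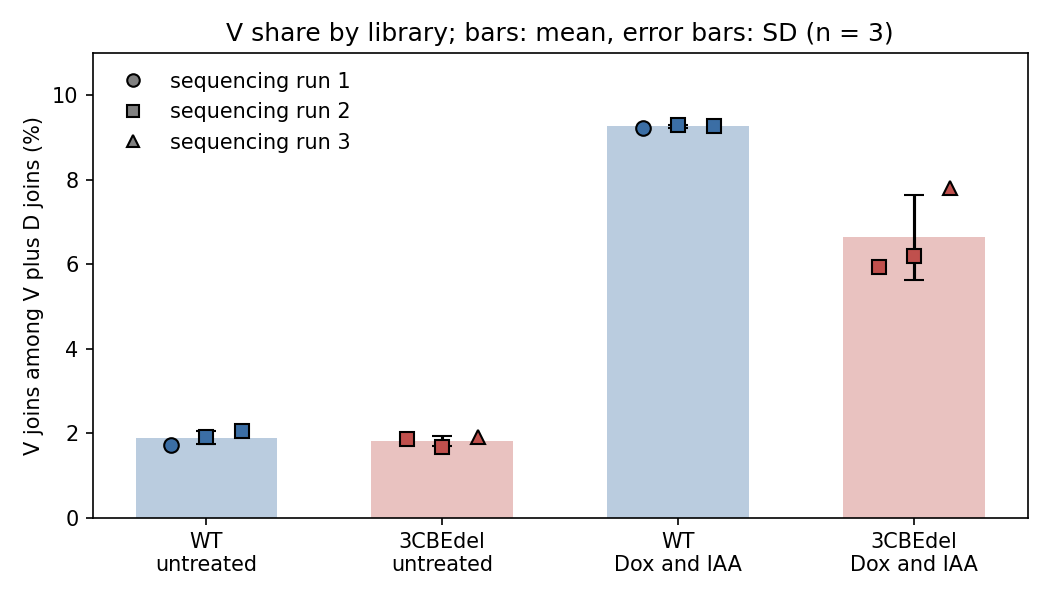
V joins as a percentage of V plus D joins (vertical axis) in each v-Abl library, by genotype and treatment (horizontal axis). Bars are means, error bars are SD over 3 libraries, and the point shape gives the sequencing run; the treated 3CBEdel libraries at 5.94% to 7.80% all lie below the treated WT libraries at 9.22% to 9.30%.

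Among D segments, Ighd4-1, also known as DQ52, was the only one whose level was called, and it fell. Its level was 7225, 7628 and 7382 junctions per 100000 in treated 3CBEdel replicates 1 to 3 and 10752, 10986 and 10772 in treated WT. The groups were far apart compared with the spread within each. The log2 difference was -0.55 (SE 0.0808), with an adjusted p of 0.000373 in limma voom with Benjamini-Hochberg adjustment over 81 segments. It was the only segment called in that fit, 1.23% of the 81 tested, and 8 had an unadjusted p under 0.05, of which 7 were lower in 3CBEdel. The median log2 difference over the 81 tested segments was -0.49, since most of them are V segments, so Ighd4-1 lay close to that median. When libraries were scaled on the segments themselves instead of on all junctions, the direction of Ighd4-1 turned, to 0.22 with median-of-ratios scaling, and the call ended there and with trimmed-mean scaling (-0.11). Those scalings moved the median over all tested segments from -0.49 to 0.30 and to -0.08. The split of calls moved with them, from 0 higher and 1 lower to 3 higher and 0 lower under each of both. The decrease of Ighd4-1 is thus stated relative to all junctions. Its mean level was 0.684 of that in WT, beside 0.72 for the summed level of the V segments.

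Within D joins, Ighd4-1 made up 7.80%, 8.26% and 8.13% in treated 3CBEdel and 12.1%, 12.3% and 12.1% in treated WT. No 3CBEdel library came near a WT library. The log2 difference within D joins was -0.60 (SE 0.0651), with an adjusted p of 3.2e-07 in limma voom over 12 tested D segments. Of those 12, 16.7% were called, namely Ighd4-1 and Ighd1-1. Ighd1-1, also known as DFL16.1, took the opposite direction. Its share of D joins was 36.6%, 40.9% and 39.5% in treated 3CBEdel and 34.3%, 34.7% and 34.0% in treated WT. All 3 3CBEdel libraries were above all 3 WT libraries, by a margin small beside the level itself. The log2 difference was 0.18 (SE 0.0536, adjusted p = 0.0207, limma voom). The Ighd1-1 call was near the threshold. Leaving out any 1 of 3CBEdel replicates 2 and 3 or WT replicates 1, 2 and 3 ended it (adjusted p 0.0632 to 0.246, limma voom). Leaving out 1 library put the log2 difference between 0.15 and 0.22. The call was also lost in run 2 alone (adjusted p = 0.18, limma voom). With trimmed-mean scaling neither D segment was called, with log2 differences of -0.31 for Ighd4-1 and 0.47 for Ighd1-1.

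Set against each other within a library, the D segments at the ends of the cluster gave 4.70, 4.94 and 4.86 Ighd1-1 joins for each Ighd4-1 join in treated 3CBEdel and 2.83, 2.81 and 2.81 in treated WT. This ratio needs no scaling, and it was computed after the shares had been seen. It was higher in each 3CBEdel library than in any WT library (exact two-sided permutation p = 0.1, the smallest possible). In untreated cells the ratio was 45.1 ± 1.61 (SD, n = 3) in 3CBEdel and 37.7 ± 3.00 (SD, n = 3) in WT, also without overlap.

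The other D segments with at least 1% of D joins were Ighd3-2, Ighd2-8, Ighd2-7, Ighd2-6, Ighd2-5, Ighd2-4 and Ighd2-3, in order of distance from JH, and none of the 7 was called. Ighd2-5 made up 1.01%, 1.13% and 1.14% of D joins in treated 3CBEdel and 1.61%, 1.56% and 1.42% in treated WT. These groups did not overlap, with a log2 difference of -0.49 (SE 0.207, adjusted p = 0.115, limma voom). Ighd3-2 had a log2 difference of -0.50 (SE 0.252), with overlapping libraries. Ighd2-8 (-0.11), Ighd2-7 (-0.14), Ighd2-6 (-0.28), Ighd2-4 (0.03) and Ighd2-3 (0.07) lay within 0.3 of 0 on the log2 scale. Ighd2-3 was the second most frequent D in both groups, at 34.3%, 26.4% and 30.5% of D joins in treated 3CBEdel and 28.8%, 28.0% and 29.7% in treated WT, and its 3CBEdel libraries spread over a wider range than the WT ones. Members of the Ighd2 family share their 3' RSS, and several are alike in coding sequence, so the deposited alignment decided which of them received a read. Across the 9 D segments, the log2 difference within D joins tended to be higher farther from JH4 (Pearson's r = 0.781, Spearman's rho = 0.833, n = 9). Distances ran from 1.96 kb for Ighd4-1 to 53.6 kb for Ighd1-1. The rise was not steady, since from Ighd2-8 outward to Ighd2-5 the values fell from -0.11 to -0.49. The 9 values come from the same 6 libraries and sum to nearly the whole of the D joins, so they are not independent. Higher values far from JH4 were not particular to treated cells. In untreated cells the ratio of mean levels, 3CBEdel over WT, was 0.829 for Ighd4-1 and 0.759 to 0.866 from Ighd3-2 to Ighd2-5. It was 0.971, 1.13 and 0.995 for Ighd2-4, Ighd2-3 and Ighd1-1. The remaining 12 D segments each had under 1% of D joins. The spread of D use was narrower in treated 3CBEdel, where the effective number of D segments, which falls as joins gather on fewer segments, was 3.71 ± 0.0695 (SD, n = 3) against 4.25 ± 0.0372 (SD, n = 3) in WT. The groups did not overlap (exact two-sided permutation p = 0.1, the smallest possible, measure added after the data were seen).

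**Figure D2:**
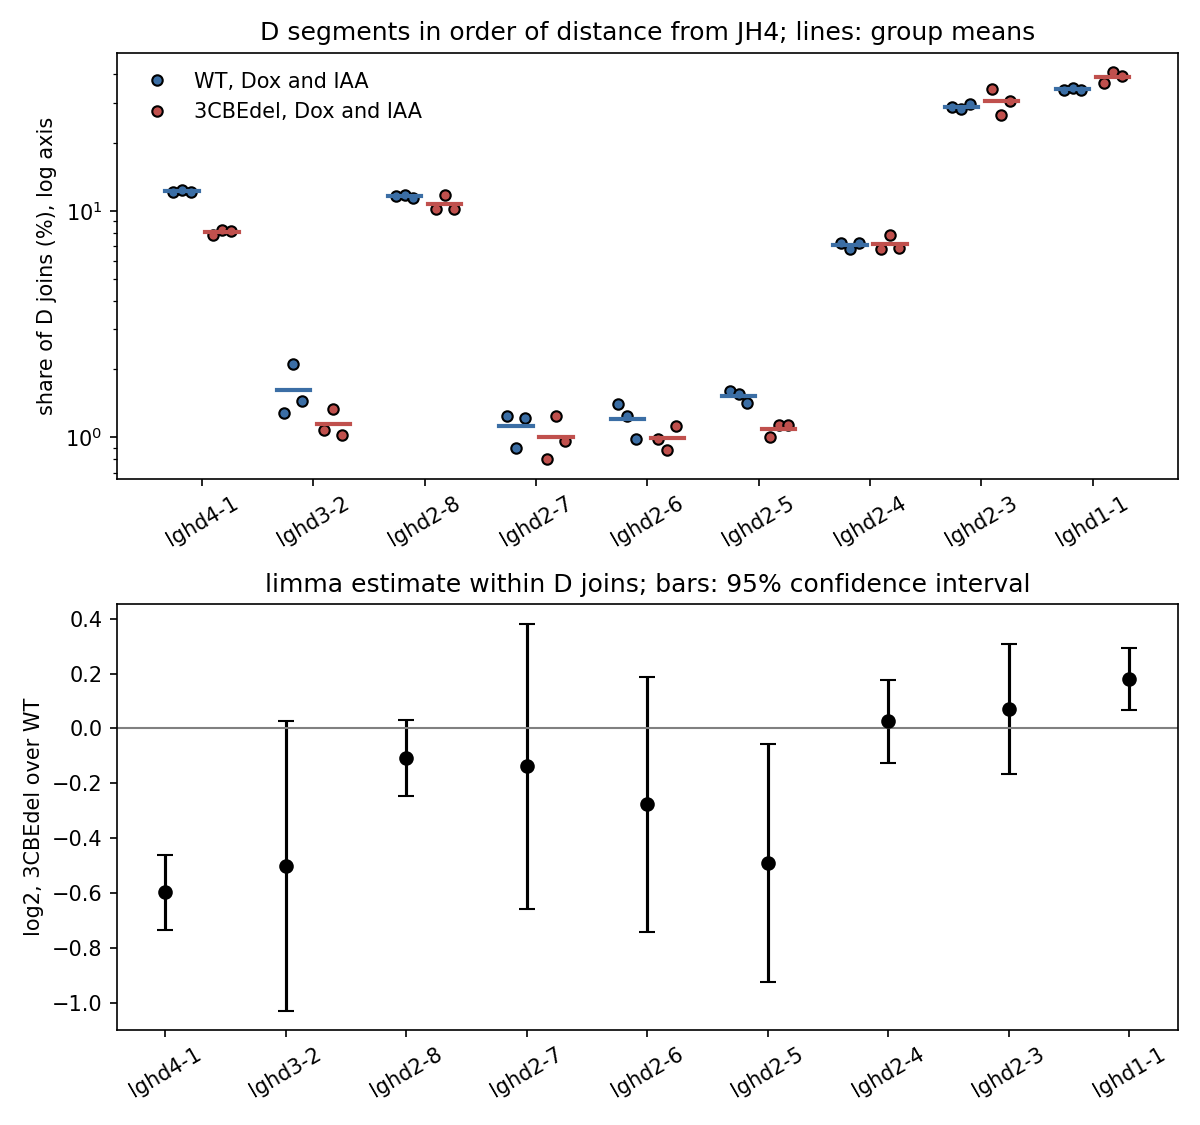
The upper panel gives each D segment's share of D joins in percent (log axis) for every treated library, with lines at group means and segments ordered by distance from JH4. The lower panel gives the log2 difference, 3CBEdel over WT, within D joins with its 95% confidence interval; Ighd4-1 (-0.60) and Ighd1-1 (0.18) are the segments whose adjusted p passed 0.05.

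The joints themselves are shown for the D segments at both ends of the cluster, since their usage differed while the form of the joint can be compared within each. The most frequent joints of Ighd4-1 and of Ighd1-1 in the 6 treated libraries are given from the D coding bases, in capitals, into JH4, in lower case; bases that could belong to either side are counted with the D.
Ighd4-1, most frequent: CTAACTGGGACtatgctatggactact
Ighd4-1, next: CTAACTGGGACgctatggactactggg
Ighd1-1, most frequent: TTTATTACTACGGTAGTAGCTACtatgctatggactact
Ighd1-1, next: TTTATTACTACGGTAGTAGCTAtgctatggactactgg
The first of these made up 12.8% ± 0.609 (SD, n = 3) of Ighd4-1 joins in treated 3CBEdel and 14.5% ± 1.501 (SD, n = 3) in treated WT. The most frequent Ighd1-1 joint made up 15.5% ± 0.768 (SD, n = 3) of Ighd1-1 joins in treated 3CBEdel and 14.2% ± 0.481 (SD, n = 3) in treated WT. Identical joints can be copies of one molecule made by PCR, and the reads carry no molecular identifier by which to tell. Over all D joins, those with bases shared between the ends were 51.8% ± 1.80 (SD, n = 3) in 3CBEdel and 52.3% ± 0.363 (SD, n = 3) in WT. The mean loss from the D end was 1.63 ± 0.0560 bases (SD, n = 3) and 1.56 ± 0.0164 bases (SD, n = 3). Neither of these measures separated the groups (exact permutation p = 0.6 and 0.2).

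The fit of zones of the locus placed these values beside JH and the V region. Of 12 zones, 25.0% were called at an adjusted p of 0.05 in limma. The first D (Ighd4-1) and the JH zone fell. The zone of the last frequent D (Ighd1-1), here the last D zone, rose, though the level of Ighd1-1 was not called in the fit of segments. Joins of JH4 to the JH zone had levels of 434, 568 and 387 per 100000 in treated 3CBEdel and 741, 687 and 677 in treated WT. The groups did not overlap, and the log2 difference was -0.62 (SE 0.129, adjusted p = 0.00583, limma). The call was lost in run 2 alone, where the log2 difference was -0.46 (adjusted p = 0.126, limma). The JH zone was also lower in untreated 3CBEdel, at 257 to 297 per 100000 against 445 to 473 in untreated WT. Most of these joins were inverted relative to a deletional join and lay at Ighj3, the JH upstream of JH4. Inverted joins at JH segments summed to 385, 433 and 357 per 100000 in treated 3CBEdel and 645, 623 and 594 in treated WT, a ratio of 0.630 without overlap. Those at Ighj3 alone averaged 326 ± 60.7 (SD, n = 3) and 488 ± 37.6 (SD, n = 3). Joins in the same direction as deletional ones averaged 71.6 ± 55.5 and 81.0 ± 16.2 per 100000 (SD, n = 3 each), with overlap. The split by orientation was made after the zone values had been seen.

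The last D zone holds the same junctions as the segment Ighd1-1, whose log2 difference in the fit of segments was 0.23 (SE 0.0587, adjusted p = 0.0600, limma voom). In the fit of zones it was 0.23 (SE 0.0573, adjusted p = 0.0124, limma), and the call was lost without WT replicate 1 (adjusted p = 0.0518) or WT replicate 3 (adjusted p = 0.0531). The middle D zone was 0.03 (SE 0.0816). The interval from Ighd1-1 to the V segments holds the insulator IGCR1 and the rare D segments Ighd3-1, Ighd5-1 and Gm16968. It had levels of 190, 125 and 266 per 100000 in treated 3CBEdel and 174, 243 and 149 in treated WT, which overlap.

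**Figure D3:**
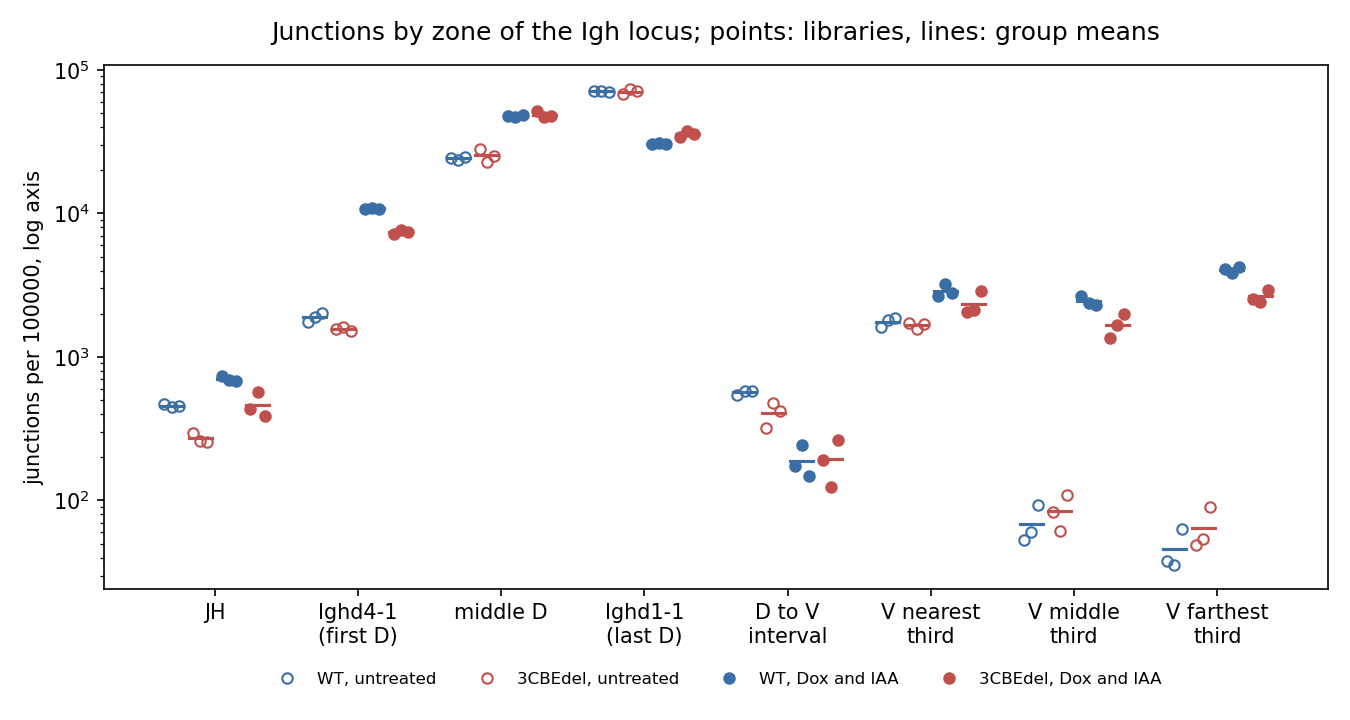
Junctions per 100000 (log axis) in 8 zones of the Igh locus for each of the 12 v-Abl libraries, open points untreated and filled points treated with Dox and IAA, with lines at group means. The treated 3CBEdel libraries lie below the treated WT libraries at Ighd4-1 (7225 to 7628 against 10752 to 10986), in the JH zone and in the middle and farthest V parts, and above them at Ighd1-1.

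In the V region the decrease was spread over many segments, none of which passed the test by itself. The summed level of all V segments was 5849, 6089 and 7678 per 100000 in treated 3CBEdel and 9032, 9129 and 9093 in treated WT. Of the 131 V segments, 119 had a join in a treated library and 69 passed the filter of at least 10 junctions in 3 libraries. Of these 69, 52 had a log2 difference below 0, with a median of -0.60, and 0 were called in limma voom. Some segments passed the filter only through the deeper treated WT libraries. Ighv1-55, for example, had 15, 14 and 18 junctions there and 4, 1 and 6 in treated 3CBEdel. Counts and medians over tested segments, here, by part, by family and over all 81, can therefore lean below 0. The summed levels take in every segment, tested or not. In 13 of the 69 every 3CBEdel library was below every WT library, and in 1, Ighv2-9-1, every 3CBEdel library was above. Over all 81 tested segments, V and D together, the same counts were 15 lower and 2 higher, and 1.23% were called, so nothing particular to V is read from the count. With median-of-ratios scaling the median over the V segments was 0.21, beside 0.30 over all tested segments, so the decrease of V joins is a statement about V joins relative to all junctions.

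Cut by distance from D into 3 parts of 809 kb each, the V region had ratios, 3CBEdel over WT, of 0.82, 0.70 and 0.66 from the nearest part to the farthest in levels summed over the V segments of each part. The levels that follow count every junction in the part, also those outside a segment's window. The nearest part had levels of 2063, 2126 and 2860 per 100000 in treated 3CBEdel and 2668, 3204 and 2791 in treated WT, which overlap through 3CBEdel replicate 3. Its log2 difference was -0.31 (SE 0.131, adjusted p = 0.102, limma), and without 3CBEdel replicate 3 it was -0.46 (adjusted p = 0.0103). The middle part had 1357, 1669 and 2003 against 2645, 2363 and 2315, with no overlap (-0.56, SE 0.258, adjusted p = 0.118, limma). The farthest part had 2542, 2424 and 2944 against 4081, 3827 and 4222, with no overlap (-0.62, SE 0.259, adjusted p = 0.102, limma). With the 6 treated libraries fitted alone, the middle and farthest parts were called (adjusted p = 0.0407 and 0.00689, limma), and with the sequencing run as a block all 3 were (adjusted p 0.0242 to 0.0308, limma). With median-of-ratios scaling the median over tested segments turned from -0.46 to 0.35 in the nearest part and was -0.08 in the middle and -0.02 in the farthest. In untreated cells the middle and farthest parts were at 36 to 110 per 100000 in both genotypes.

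Within V joins, the nearest part made up 35.3%, 34.8% and 37.2% in treated 3CBEdel and 28.9%, 34.7% and 30.7% in treated WT. WT replicate 2 reached almost to the lowest 3CBEdel library, and the exact two-sided permutation p was 0.1, the smallest possible. The farthest part made up 39.6% ± 2.38 (SD, n = 3) and 43.2% ± 2.52 (SD, n = 3), which overlapped (exact permutation p = 0.2). The median distance of V joins from the D end of the V region was 1418, 1215 and 1039 kb in treated 3CBEdel and 1418, 1209 and 1418 kb in treated WT (exact permutation p = 0.7). Among 21 measures of share, position and joint structure tested this way, the lowest Benjamini-Hochberg adjusted p of the exact tests was 0.467.

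In steps of 250 kb, all 10 stretches had a mean level in 3CBEdel below that in WT, and in 5 of the 10 the libraries did not overlap. The stretch from 2000 to 2250 kb, picked out after the values were seen, was lowest relative to WT. It held V joins at 837, 635 and 857 per 100000 in treated 3CBEdel and 1496, 1388 and 1506 in treated WT, a ratio of 0.53. Its share of V joins was 11.97% ± 2.06 (SD, n = 3) in 3CBEdel and 16.1% ± 0.788 (SD, n = 3) in WT, also without overlap. Of the 10 steps it was the only 1 whose shares did not overlap, so no local change in V use is read from it. The 11 V segments there include Ighv8-12, Ighv1-70 and Ighv1-74. The first 250 kb, next to D, had a ratio of 0.936, at 941 ± 202 and 1005 ± 230 per 100000 (SD, n = 3 each), and overlapped.

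**Figure D4:**
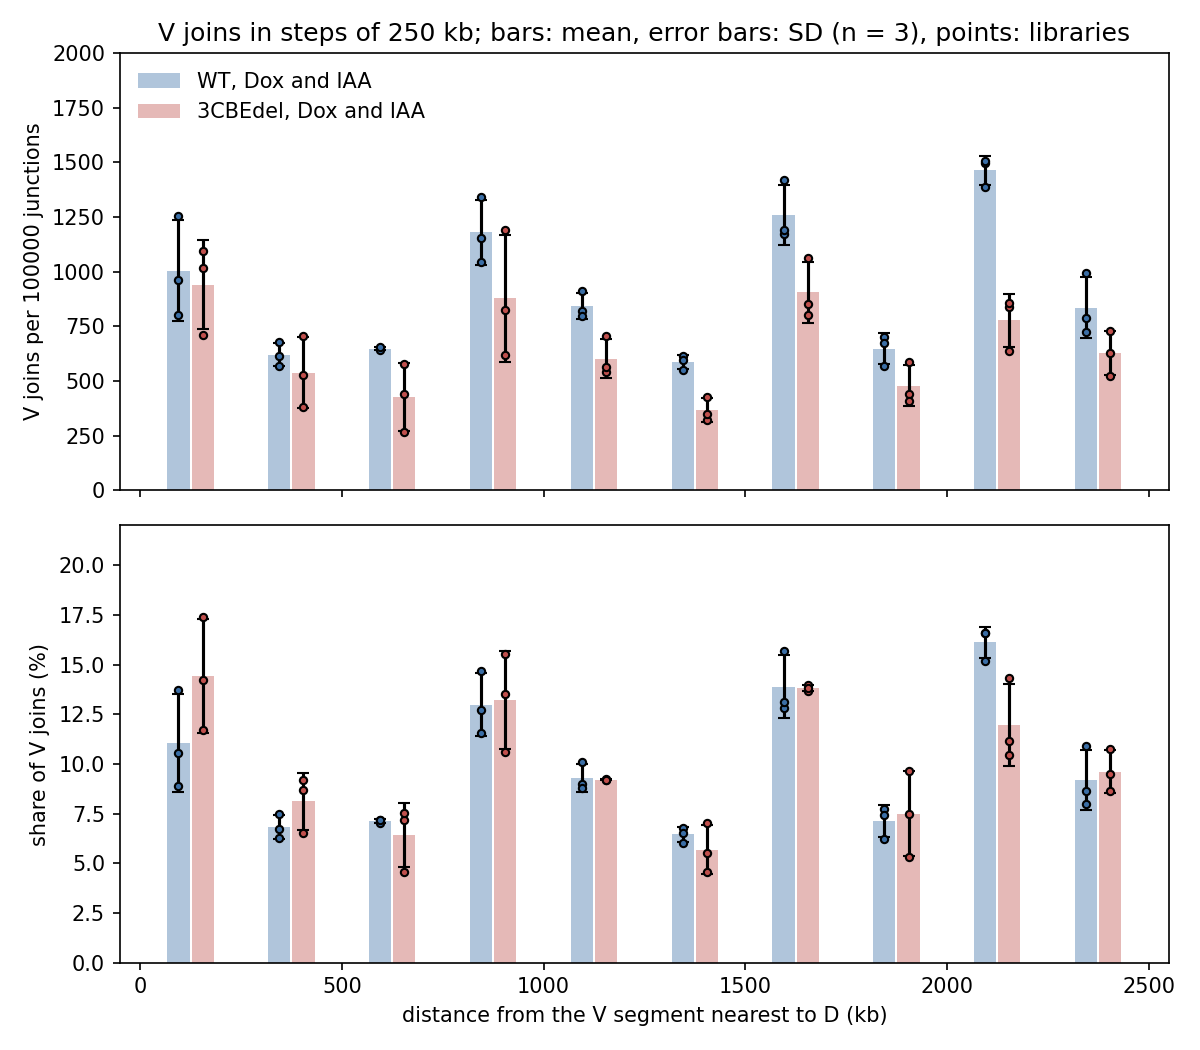
V joins in steps of 250 kb against the distance from the V segment nearest to D, per 100000 junctions (upper panel) and as a percentage of V joins (lower panel). Bars are means and error bars SD over 3 treated libraries per genotype, and points are libraries; the step from 2000 to 2250 kb is at 776 per 100000 in 3CBEdel and 1463 in WT.

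Of the named V segments, those with the most joins were spread over all 3 parts. Ighv8-12, at 2075 kb, had levels of 226, 183 and 303 per 100000 in treated 3CBEdel and 517, 537 and 390 in treated WT. The groups did not overlap, and the log2 difference was -1.06 (SE 0.333, adjusted p = 0.117, limma voom). It was called with the 6 treated libraries fitted alone (-1.05, adjusted p = 0.0475) and with identical reads counted once (-1.14, adjusted p = 0.0184), both limma voom. Ighv1-70 had 339, 159 and 303 against 517, 342 and 501, again without overlap though 3CBEdel replicate 1 came close to WT replicate 2 (-0.79, SE 0.435). Ighv1-54 (-1.07), Ighv8-8 (-0.61) and Ighv1-78 (-0.60), also in the farthest part, overlapped between groups. Ighv1-47, in the middle part, had 167, 178 and 144 against 238, 221 and 204, without overlap (-0.39, SE 0.41). The unnamed cluster of joins at chr12:115850452-115850468 had 267, 226 and 478 against 508, 249 and 349, with overlap (-0.21). Ighv12-3 (-0.49) and Ighv13-2 (-0.49), in the nearest part, overlapped.

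Among the V segments closest to D, Ighv5-2, known as VH81X and for the CBE beside its RSS, had 303, 293 and 326 per 100000 in treated 3CBEdel and 252, 333 and 425 in treated WT. These overlapped, with a log2 difference of -0.13 (SE 0.304). Ighv5-1, a pseudogene, had 4.52, 19.2 and 37.9 against 27.5, 70.3 and 38.0. Ighv2-2 had 109, 96.2 and 220 against 137, 304 and 193. Ighv5-4, alone of these 4, had a log2 difference above 0, at 118, 101.0 and 114 against 54.9, 102 and 79.5 (0.48, SE 0.464). None of the 4 passed the test, and all 4 overlapped. The summed level of the 10 V segments nearest to D was 807 ± 154 (SD, n = 3) in 3CBEdel and 918 ± 226 (SD, n = 3) in WT, a ratio of 0.878 with overlap.

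By family, the summed level of the 62 Ighv1 segments, the large family of the middle and far V region, was 2398, 2439 and 2693 per 100000 in treated 3CBEdel and 3848, 3690 and 4132 in treated WT, a ratio of 0.645 without overlap. Of its 27 tested members, 23 had a log2 difference below 0 (median -0.82) and 0 were called. Counts and medians of tested members are subject to the filter described above. The 8 Ighv8 segments had a ratio of 0.628 without overlap, with 4 of 5 tested below 0. The 11 Ighv5 segments had a ratio of 0.896 and the 10 Ighv2 segments 1.17, both with overlap, and the tested Ighv2 members had a median of 0.86 with 1 of 7 below 0. With median-of-ratios scaling the medians of the tested members were -0.08 for Ighv1, -0.26 for Ighv8 and 1.69 for Ighv2, and that of Ighv5 turned from -0.46 to 0.32. The 14 V pseudogenes had a ratio of 0.715 and the 110 segments not so annotated 0.703. V segments were also grouped by heptamer after the values had been seen. The 92 with CACAGTG, 73.0% of the 126 V segments with an RSS found here, had a ratio of 0.714, and the 34 with 1 or more differences 0.727. In the same grouping of D segments, the 8 with CACAGTG, Ighd1-1 among them, had a ratio of 1.09. The 13 with 1 or more differences, Ighd4-1 among them, had 0.696, and neither D group overlapped between genotypes. Ighd4-1 held most joins of its group, at 10752 to 10986 beside a group mean of 12720 per 100000 in treated WT. The ratio of 0.696 thus largely restates the 0.684 of Ighd4-1. Most joins of the CACAGTG group were those of Ighd1-1 and Ighd2-3, and its tested members had ratios from 0.736 (Ighd2-5) to 1.17 (Ighd1-1). Heptamer and distance from JH4 were not tested apart.

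Within V joins, where each V segment is set against the other V segments, 0 of 69 were called in limma voom (0.0%), and 3 had an unadjusted p under 0.05: Ighv1-42 lower, and Ighv2-9-1 and Ighv1-81 higher in 3CBEdel. These 3 are named after their values were seen. In this fit the median was -0.08, with 37 of 69 below 0. Ighv8-12 made up 3.87%, 3.00% and 3.95% of V joins in treated 3CBEdel and 5.72%, 5.88% and 4.29% in treated WT, without overlap (-0.54, SE 0.309). Ighv5-2 made up 5.18%, 4.82% and 4.25% against 2.79%, 3.64% and 4.67%, with overlap (0.37, SE 0.275). The effective number of V segments was 45.2 ± 4.09 (SD, n = 3) and 45.1 ± 2.70 (SD, n = 3). In 1012 V joins drawn from each library, the V segments expected to be seen numbered 95.8 ± 5.49 (SD, n = 3) and 99.3 ± 1.00 (SD, n = 3), with exact permutation p = 0.4.

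The V joins also carry the D that had joined JH4 before. Each V join was given the D with the most matches of 8 bases, also where another D had fewer such matches. A tie left it without a D. A D was so assigned in 83.2% ± 1.83 (SD, n = 3) of V joins in treated 3CBEdel and 81.5% ± 1.81 (SD, n = 3) in treated WT. Among these, Ighd1-1 made up 35.8%, 50.1% and 35.4% in 3CBEdel and 34.5%, 34.0% and 38.7% in WT. Only 3CBEdel replicate 2 stood apart, and the exact permutation p was 0.5. Ighd4-1 made up 0.751% ± 0.432 (SD, n = 3) and 1.02% ± 0.773 (SD, n = 3) of the D segments read inside V joins, against 8.06% and 12.2% of D joins. With 11 coding bases, Ighd4-1 is harder to read by a run of 8 than longer D segments, so these shares are not on the scale of those among D joins. Ighd2-8 made up 3.52%, 5.71% and 9.37% against 9.77%, 10.7% and 8.46%, with overlap (exact permutation p = 0.2). In untreated cells it made up 3.90% ± 0.765 in 3CBEdel and 8.85% ± 0.507 in WT (SD, n = 3 each), without overlap. Untreated Ighd1-1 was at 52.0% ± 4.42 in 3CBEdel and 45.8% ± 1.27 in WT, and Ighd4-1 at 0.688% ± 0.330 and 1.85% ± 0.376 (SD, n = 3 each). Neither of these overlapped.

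Between V and JH4 the V joins held a mean of 12.1, 12.5 and 12.9 bases in treated 3CBEdel and 11.6, 11.96 and 11.3 bases in treated WT. The groups did not overlap, and the difference was 0.858 bases (exact two-sided permutation p = 0.1, the smallest possible). The longer stretch in 3CBEdel was not particular to treated cells. In untreated cells the library means ran from 12.276 to 12.779 bases in 3CBEdel and from 11.769 to 12.185 in WT, also without overlap. In treated cells, loss from the V end averaged 1.54 ± 0.131 bases in 3CBEdel and 1.59 ± 0.146 in WT (SD, n = 3 each). V joins in frame with JH4 made up 32.9% ± 3.98 (SD, n = 3) and 30.6% ± 2.27 (SD, n = 3), with exact permutation p = 0.6. Inversional joins were rare on both sides of the comparison, at 0.210% ± 0.299 (SD, n = 3) of V joins in 3CBEdel and 0.630% ± 0.219 (SD, n = 3) in WT, and at 0.148% ± 0.0657 (SD, n = 3) and 0.210% ± 0.0268 (SD, n = 3) of D joins. Both pairs overlapped (exact permutation p = 0.2 for each).

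The genotype difference was set against that in untreated cells for each segment. In the limma voom interaction 0 of 81 segments were called (0.0%), with 13 at an unadjusted p under 0.05, of which 12 were below 0. For Ighd4-1 the interaction was -0.28 (SE 0.112, adjusted p = 0.214), and its sign turned with median-of-ratios and trimmed-mean scaling (0.89 and 0.12). In untreated cells Ighd4-1 was at 1563 ± 39.2 per 100000 (SD, n = 3) in 3CBEdel and 1885 ± 132 (SD, n = 3) in WT. For Ighd1-1 the interaction was 0.23 (SE 0.0651, adjusted p = 0.156). Untreated Ighd1-1 levels were 70471 in 3CBEdel and 70853 in WT.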

How the data were processed

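Genomic DNA of 12 v-Abl libraries was read outward from JH4. Reads were aligned to mm9 with Bowtie2, per the submitters' processing notes (version not given in the sources used here), and the enzyme blocking step was left out, per the labels. The deposited files hold 1 read with a junction per line, and a duplicate flag that is 0 on every line, so copies of a molecule count more than once. Positions, strands and read sequences were used, and the read names gave the sequencing run.

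Junctions were tabulated by chromosome, position and strand. V and D segments came from GENCODE vM1 on mm9 (116 V, 21 D), with names from RefSeq, plus 15 clusters of at least 20 joins outside annotated V segments, 8 of them named through RefSeq neighbours. RSS sequences were read from the mm9 genome. Segments with at least 10 junctions in 3 libraries entered a voom fit (limma 3.58.1, R 4.3.3) of all 12 libraries, sized by library total, without a block. For zones, limma was run on log2 values of junctions per 100000 plus 1. Adjusted p-values are Benjamini-Hochberg values with a threshold of 0.05; differences are 3CBEdel minus WT. Single values were compared by exact permutation over 20 relabelings, or 400 for the difference of differences, in Python 3.11.15. The fit of segments was also run on simulated counts with changes larger than those called in the main fits. That run does not test the choice of scaling or changes of the size called here.

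Named segments were Ighd4-1, Ighd1-1, Ighv5-1, Ighv5-2, Ighv2-2 and Ighv5-4, the 10 V segments with the highest mean share of V joins over the treated libraries, D segments with at least 1% of D joins, and up to 15 called segments in each direction. Members, lists and tests were chosen with earlier results of these data known. Replicate numbers did not pair the libraries: same-numbered treated libraries had correlations of 0.108, 0.120 and -0.017. Bone marrow libraries were not used here.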

Additional observations from a re-analysis of the deposited data

How the results depend on the processing

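The limits are the 3 libraries per group, the 1012 to 2855 V joins in each treated library, and the runs, since only run 2 holds both treated groups. Leaving out 1 library put the difference in V share between -3.20 and -2.27 points, and no alternative tried turned it. Unless a value is given below, the cause of a change was not tested.

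Calls among segments per 100000 numbered 3 with median-of-ratios and 3 with trimmed-mean scaling, 2 with limma trend, 4 with the treated libraries alone, 4 with identical reads once, and 1 to 3 leaving out 1 library. Calls within D joins numbered 0 with trimmed-mean scaling, 1 with the treated libraries alone, 1 in run 2 and 1 to 2 leaving out 1 library. Zone calls numbered 5 with the treated libraries alone, 5 with identical reads once, 6 with the run block and 2 to 4 leaving out 1 library. Interaction calls numbered 6 with median-of-ratios and 3 with trimmed-mean scaling. With the replicate number as a block, 2 segments and 1 interaction were called; the numbers do not pair the libraries. Within V joins, 0 segments were called in each alternative.

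With median-of-ratios scaling the log2 difference per 100000 turned for Ighd4-1 (0.22), Ighv1-47 (0.38), Ighv1-78 (0.21), Ighv12-3 (0.30), Ighv13-2 (0.31), Ighv2-2 (0.10), Ighv5-2 (0.65), Ighv8-8 (0.20) and the unnamed cluster (0.58), and the Ighd4-1 interaction was 0.89. With trimmed-mean scaling it turned for Ighv1-47 (0.040), Ighv5-2 (0.30) and the unnamed cluster (0.22), and that interaction was 0.12. Within D joins, Ighd2-7 and Ighd2-8 turned with both (0.072 and 0.099, then 0.13 and 0.17), Ighd2-6 with the trimmed mean (0.041) and Ighd2-4 with identical reads once (-0.030).

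In run 2 alone the median distance of V joins differed by 3.45 kb, the middle part's share of V joins by 0.106 points, the effective V number by -0.822 and the in-frame share by -0.069 points, each turned. The interval between D and V turned to -0.30 there, to -0.18 with the run block and to -0.065 with identical reads once, which also turned the share of D joins with shared bases (0.884 points).

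Leaving out 1 library turned small differences, with ranges of -1.58 to 0.429 points for the middle part's share, -2.14 to 1.82 for the effective V number, -0.114 to 7.23 points for Ighd1-1 and -0.592 to 0.160 points for Ighd4-1 inside V joins, -1.54 to 0.178 points for shared bases and -0.116 to 0.0375 for bases lost from V. On the log2 scale the ranges were -0.29 to 0.053 for Ighv5-2, -0.48 to 0.0055 for the unnamed cluster, -0.046 to 0.085 for Ighd2-4 and -0.33 to 0.049 for Ighd2-7 within D joins, -0.0092 to 0.056 for the middle D zone and -0.26 to 0.28 for the interval.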
